A study of Homo sapiens with 9 samples.

Results

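The clustered histone genes are the canonical histone genes that lie side by side in the genome, and here they were taken as every gene of the deposited table whose older symbol begins with HIST1H, HIST2H, HIST3H or HIST4H. This rule found 62 of the 19930 genes with values, namely 5 genes for H1, 16 for H2A, 16 for H2B, 12 for H3 and 13 for H4. By position, 49 belonged to the HIST1 cluster on chromosome 6, 9 to HIST2 and 3 to HIST3 on chromosome 1, and 1 to HIST4 on chromosome 12. All cells were MDA-MB-453, an established human breast cancer line, transfected with a Lipofectamine reagent and harvested 48 h later. The 3 libraries of X453_NC were the controls, and the 3 libraries each of X453_1 and X453_2 carried a knockdown of the long noncoding RNA Linc00673. The labels do not say which siRNA each knockdown group received. The labels do not say whether the 3 libraries of a group came from separate cultures, and the study describes its experiments only in general as independent repeats, so the P values measured the spread between these libraries, which may be technical. The level of the targeted RNA itself was not analysed here.

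Levels were given as FPKM, a fragment count divided by transcript length and library depth, which allows levels to be set side by side between genes of different length. The steps between low FPKM values gave an estimated depth of 23.1 M to 27.2 M fragments per library. Among genes chosen as markers of the line, KRT8, KRT18, KRT19, TFF3, XBP1, FGFR4 and ERBB2 were measured at 11.79 FPKM or more in every library. Among markers of other cell types, PTPRC, COL1A2 and PECAM1 stayed at 0.12 FPKM or less in every library, whereas COL1A1, a collagen gene of fibroblasts, ran from 3.49 to 4.12 FPKM in X453_NC, from 5.31 to 5.84 in X453_1 and from 5.44 to 7.08 in X453_2 and was called higher in both (0.44, adjusted P = 0.0014, and 0.62, adjusted P = 0.00011). Its part in the histone values was not tested. In bulk RNA, fewer cells of a kind (here, cells in S phase) and less RNA per cell cannot be told apart.

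Histones package DNA. H2A, H2B, H3 and H4 form the nucleosome core, and H1, the linker histone, binds where the DNA enters and leaves it. Most clustered histone genes are transcribed in S phase under the coactivator NPAT, and their mRNAs end in a stem-loop in place of a poly(A) tail. The stem-loop-binding protein SLBP binds this hairpin, and it is needed for 3′ end formation, translation and timed decay. Some of these genes also give a polyadenylated mRNA that outlasts S phase. A method that selects RNA by its poly(A) tail records mostly this second form, and the sources used here did not state whether such a selection was made.

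The stem-loops are shown because they are what sets these mRNAs apart. In GENCODE v29 transcripts (build GRCh38), 29 of the 62 members held a 16-base stem-loop, in 5 spellings, with the most frequent spelling in 15 members. Many of the other gene models stop at the coding sequence, so that no match says only that the modelled transcript does not hold these letters. In the lines below the 16 bases of the stem-loop are in capitals, read 5′ to 3′ on the gene's strand.
HIST2H2AA3 (chr1:149842218-149842243, minus strand): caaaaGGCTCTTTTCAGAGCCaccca
HIST2H2BE (chr1:149886183-149886208, minus strand): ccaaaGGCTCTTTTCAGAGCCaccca
HIST1H2AE (chr6:26217412-26217437, plus strand): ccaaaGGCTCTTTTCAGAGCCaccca
HIST3H2A (chr1:228457364-228457389, minus strand): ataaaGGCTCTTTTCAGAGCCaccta
HIST1H2BD (chr6:26158582-26158607, plus strand): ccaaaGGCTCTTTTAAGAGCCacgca
HIST1H4E (chr6:26204996-26205021, plus strand): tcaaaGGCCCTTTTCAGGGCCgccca
HIST2H4A (chr1:149833027-149833052, plus strand): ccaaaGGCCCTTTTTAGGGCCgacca
The transcript model of HIST2H2BE ran on for 1729 bases after the stem-loop, that of HIST3H2A for 390 bases, that of HIST1H4E for 1022 bases and that of HIST1H2AE for 51 bases. HIST1H2AE and HIST2H2BE carried the same 26 bases in this window.

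Promoters, taken from RefSeq (GRCh38.p14), were found for 57 of the 62 members as the 250 bases before a transcript start. They are shown for the 5 members with the highest or most changed levels described below. Capitals mark TATAAA (the TATA box, gene strand only), CCAAT (both strands), ATTTGCAT (the octamer bound by POU2F1, both strands) and AAACACA (the H1 box of linker histone promoters, both strands); no marked motifs overlapped.
HIST1H1C (chr6:26056471-26056720, minus strand): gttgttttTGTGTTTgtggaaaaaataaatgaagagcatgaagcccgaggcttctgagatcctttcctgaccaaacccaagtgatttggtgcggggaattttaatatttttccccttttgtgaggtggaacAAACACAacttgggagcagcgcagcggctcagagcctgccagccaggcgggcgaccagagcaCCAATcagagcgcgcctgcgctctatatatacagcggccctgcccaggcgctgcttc
HIST1H1E (chr6:26156079-26156328, plus strand): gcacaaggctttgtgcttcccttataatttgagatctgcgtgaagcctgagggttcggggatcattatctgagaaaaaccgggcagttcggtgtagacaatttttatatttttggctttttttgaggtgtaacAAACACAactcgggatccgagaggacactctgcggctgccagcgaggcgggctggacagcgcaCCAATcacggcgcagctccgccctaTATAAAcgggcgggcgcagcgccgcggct
HIST2H2AA3 (chr1:149842751-149843000, minus strand): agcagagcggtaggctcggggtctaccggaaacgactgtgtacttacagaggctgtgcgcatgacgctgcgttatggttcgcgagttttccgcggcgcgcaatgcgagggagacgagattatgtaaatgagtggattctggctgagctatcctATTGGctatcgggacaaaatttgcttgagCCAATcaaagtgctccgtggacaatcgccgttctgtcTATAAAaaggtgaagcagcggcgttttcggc
HIST2H2BE (chr1:149886683-149886932, minus strand): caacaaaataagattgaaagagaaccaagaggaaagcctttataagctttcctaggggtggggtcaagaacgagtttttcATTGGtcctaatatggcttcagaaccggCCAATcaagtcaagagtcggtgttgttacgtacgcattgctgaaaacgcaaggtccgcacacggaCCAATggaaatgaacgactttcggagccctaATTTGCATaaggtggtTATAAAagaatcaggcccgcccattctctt
HIST3H2A (chr1:228457874-228458123, minus strand): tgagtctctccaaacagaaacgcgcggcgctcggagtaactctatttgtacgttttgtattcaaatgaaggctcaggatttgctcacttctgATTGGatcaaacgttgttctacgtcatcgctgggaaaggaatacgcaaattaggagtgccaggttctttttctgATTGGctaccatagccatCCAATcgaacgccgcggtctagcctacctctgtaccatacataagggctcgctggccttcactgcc
The H1 box stood in all 5 H1 promoters and in none of the 52 others, against 5.95% of the 27305 genes with a promoter. CCAAT was found in all 46 matched H1, H2A, H2B and H3 genes and in 2 of 11 H4 genes, against 37.0% of all genes. The octamer was found in 10 of 15 H2A genes, in 12 of 16 H2B genes, in 1 of 10 H3 genes and in no H1 or H4 gene, against 2.03% of all genes. TATAAA stood in 31 of 57 members, against 8.38% of all genes.

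Most clustered histone genes were measured at a low level. The mean over the 9 libraries reached 1 FPKM in 23 of 62 members (37.1%), against 64.6% of all genes. In X453_NC the group mean reached 1 FPKM in 17 members, in X453_1 in 22 and in X453_2 in 31. Of all 19930 genes, 12927, 12921 and 12654 did so. Only 12 members were at 1 FPKM or above in each of the 9 libraries, and 36 reached it in at least 1 library, against 11819 and 13969 of all genes. By class, 2 of 5 H1 genes, 7 of 16 H2A genes, 8 of 16 H2B genes, 0 of 12 H3 genes and 6 of 13 H4 genes reached a mean of 1 FPKM. HIST1H4E at 1.08 and HIST2H2AC at 1.03 lay just inside this limit, and HIST1H3H at 0.996 and HIST1H2AM at 0.953 just outside it. The 39 members below it had means from 0.0544 to 0.996 FPKM, with a median of 0.31.

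The summed level of the 62 members rested on a few genes. HIST1H1C, a somatic linker histone gene, held 18.2% of it over the 9 libraries, and the 8 highest members held 75.0%. The copies HIST2H2AA3 and HIST2H2AA4 came next with 12.4% each, then HIST2H2BE with 8.4% and HIST3H2A with 7.34%. By cluster, 7 of 9 HIST2 genes reached 1 FPKM, against 14 of 49 HIST1 genes and 1 of 3 HIST3 genes, and the HIST4 gene did so as well. The 7 include the copies HIST2H2AA3 and HIST2H2AA4, and the copies HIST2H4A and HIST2H4B, each pair with equal values in all 9 libraries. HIST1 has a gap in the middle, and 10 of the 28 genes on the side of HIST1H1C and 4 of the 21 genes on the side of HIST1H2BK reached 1 FPKM. Of 12 members known to give polyadenylated mRNA, 11 reached 1 FPKM, with a median of 9.54 FPKM over the 12, and HIST1H4H at 0.864 was the exception. Of the 50 members outside that list 12 did so, with a median of 0.442 FPKM, and HIST2H2AA4, whose values equal those of the listed HIST2H2AA3, was the highest of them. The list was compiled with earlier results of these data known, so this contrast is not an independent test. Of 21 members with a poly(A) signal in the last 40 bases of a GENCODE transcript, 14 reached 1 FPKM, with a median of 1.26. Of the 41 others 9 did so, HIST1H1C among them, with a median of 0.336. The listed testis forms HIST1H1T and HIST3H3 had means of 0.0544 and 0.0922 FPKM.

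**Figure D1:**
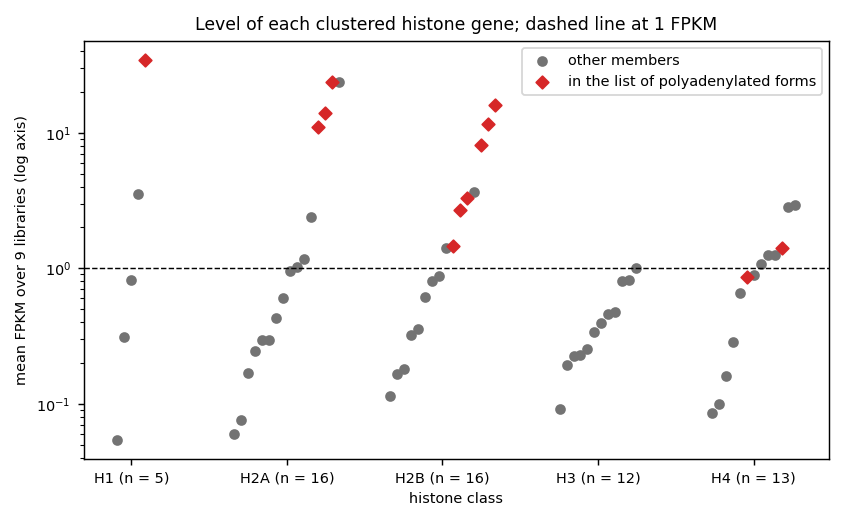
Mean FPKM over the 9 libraries (log axis) of each of the 62 clustered histone genes, by class, with genes listed as giving polyadenylated mRNA as red diamonds and a dashed line at 1 FPKM. The list was compiled with earlier results of these data known. No H3 gene lies above the line (HIST1H3H sits just under it at 0.996), and 11 of the 12 diamonds do.

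As sums, the classes differed in how their levels compared between the groups (sums were not tested). The 5 H1 genes together stood at 25.56, 21.42 and 24.67 FPKM in X453_NC, at 38.62, 37.04 and 36.34 in X453_1 and at 57.31, 56.94 and 55.88 in X453_2, so that no 2 groups overlapped. The 16 H2A genes summed to 75 ± 6.68 FPKM (SD, n = 3) in X453_NC, 56.1 ± 1.77 in X453_1 and 108 ± 5.26 in X453_2, and each library of X453_1 lay below and each of X453_2 above those of X453_NC. The H2B genes summed to 42 ± 1.14, 45 ± 2.82 and 67.7 ± 4.94 FPKM, where X453_NC and X453_1 overlapped and X453_2 lay above both. The 12 H3 genes summed to only 2.88, 3.05 and 4.78 FPKM in X453_NC, 5, 4.67 and 6.49 in X453_1 and 7.84, 6.80 and 5.96 in X453_2. Behind these H3 sums stood 34 to 57 fragments per library in X453_NC, 52 to 69 in X453_1 and 67 to 86 in X453_2. The H4 genes summed to 10.7 ± 1.98, 15 ± 2.51 and 15.9 ± 2.97 FPKM, and both knockdown groups overlapped X453_NC.

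Clusters differed as well. HIST1 summed to 78 ± 3.06 FPKM in X453_NC, 98.6 ± 3.84 in X453_1 and 132 ± 2.21 in X453_2. HIST2 summed to 54.1 ± 6.92, 48.8 ± 1.16 and 109 ± 4.61 FPKM, so that its level stood apart in X453_2 alone. HIST3 ran the other way, with 21.7 ± 1.22 FPKM in X453_NC, 9.65 ± 1.25 in X453_1 and 13.4 ± 1.91 in X453_2, nearly all of it from HIST3H2A. Within HIST1, the genes on the side of HIST1H1C summed to 54.5 ± 2.28, 72.1 ± 1.94 and 104 ± 3.27 FPKM, and those on the side of HIST1H2BK to 23.5 ± 1.82, 26.5 ± 1.9 and 28 ± 1.06.

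**Figure D2:**
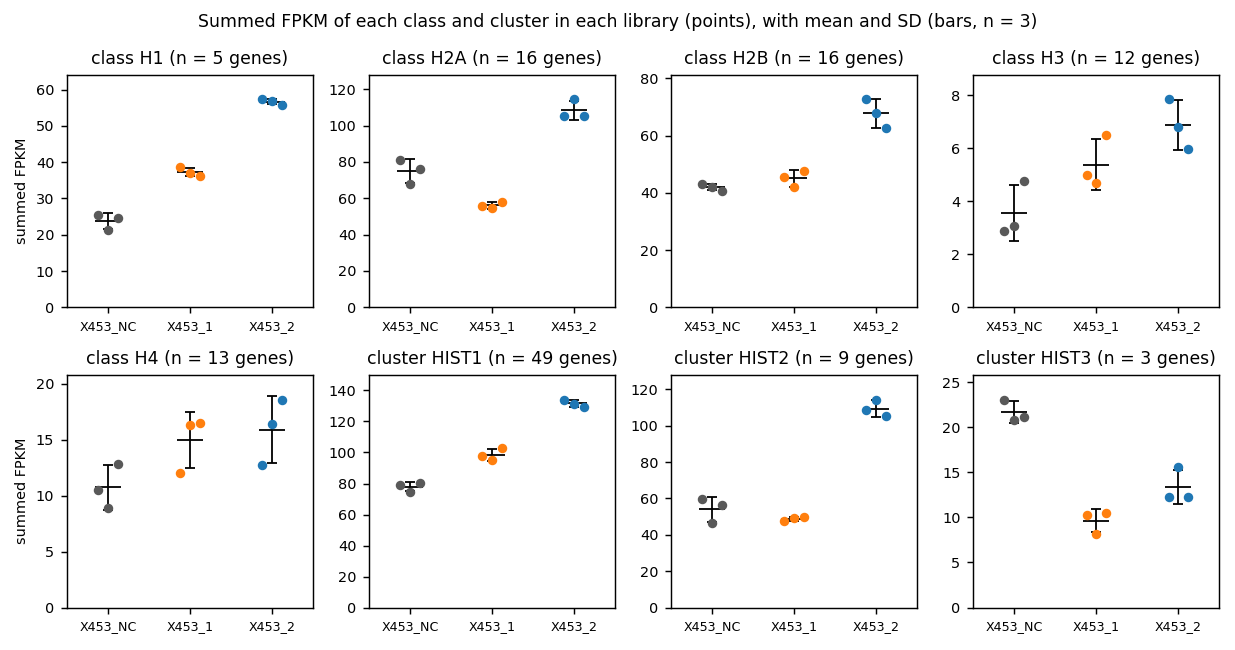
Summed FPKM of the genes of each class (H1 to H4) and of the clusters HIST1, HIST2 and HIST3 in each library (points), with the mean and SD of the 3 libraries per group (bars). The H1 and HIST1 sums rank X453_NC, X453_1, X453_2 without overlap, HIST2 stands apart in X453_2 alone, and HIST3 is lower in both knockdown groups.

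Single genes were compared by limma after log2(FPKM + 1) transformation, in a joint fit of the 9 libraries, for the 12884 genes whose mean reached 1 FPKM. A gene was called at a fold change of 1.3 or more with P no larger than 0.05. The P adjusted over all 12884 genes is given beside each call. Both knockdown groups were compared with the same X453_NC libraries, so their results are not independent of each other. Of the 23 tested members, 6 were called higher and 3 lower in X453_1, where 11.1% of all genes tested were called higher and 15.6% lower. In X453_2, 12 were called higher and 2 lower, where 11.0% of all genes were called higher and 23.1% lower. The median log2 difference of the 23 was 0.18 in X453_1 and 0.73 in X453_2, against 0.0032 and -0.095 over all genes. Of the 23, 6 (HIST1H1E, HIST1H2AE, HIST2H2AC, HIST1H2BG, HIST1H2BH and HIST1H4E) had a mean under 1 FPKM in X453_NC and so passed the filter through the knockdown libraries. Of these, HIST1H1E, HIST1H2AE, HIST1H2BG and HIST1H2BH were called higher in X453_1, where the only other higher calls were HIST1H1C and HIST1H2BC. All of the 6 but HIST1H2BH were called higher in X453_2. The counts of higher calls thus include members that the filter took in through the groups where they were high. In a fit without the filter, which takes in all 62 members, 13 were called higher and 4 lower in X453_1 (8.06% and 11.3% of 19930 genes), and 18 higher and 3 lower in X453_2 (8.04% and 16.8%). Over all genes the split of calls in X453_2 depended on the scaling, with 1411 higher and 2974 lower as deposited and 1975 and 2246 after median-ratio scaling, whereas the members stayed at 12 higher and went from 2 to 1 lower.

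**Figure D3:**
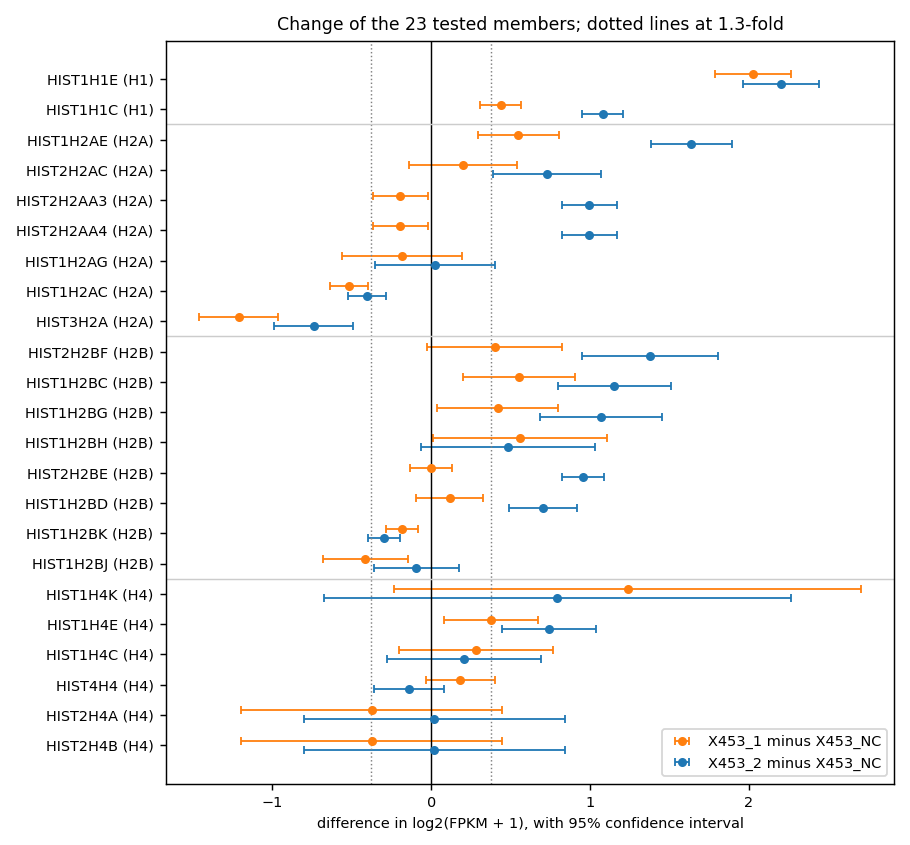
Difference in log2(FPKM + 1) from X453_NC of the 23 tested members, by class, in X453_1 (orange) and X453_2 (blue), with 95% confidence intervals from limma and dotted lines at a 1.3-fold change. HIST1H1E lies furthest to the right in both comparisons, HIST3H2A furthest to the left, and HIST2H2AA3, HIST2H2AA4 and HIST2H2BE lie near or below 0 in X453_1 and near 1 in X453_2.

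Both tested linker histone genes of the clusters rose in both knockdown groups. HIST1H1C (chromosome 6, 26055968 to 26056699, minus strand, GRCh37.p13) was measured at 24.69, 20.56 and 23.64 FPKM in X453_NC, at 32.12, 31.22 and 30.70 in X453_1 and at 49.14, 50.22 and 49.09 in X453_2. The 3 groups were fully separated, X453_2 highest. The log2 change was 0.44 ± 0.057 (SE) in X453_1 (adjusted P = 9e-05) and 1.08 ± 0.057 in X453_2 (adjusted P = 1.6e-07). Without X453_NC replicate 2 the change in X453_1 was 0.36, under the limit of 1.3-fold.

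HIST1H1E (chromosome 6, 26156559 to 26157343, plus strand), a second somatic linker histone gene, had the largest rise of the 23 tested members in both comparisons. It was measured at 0.32, 0.34 and 0.54 FPKM in X453_NC, at 5.25, 4.61 and 4.24 in X453_1 and at 6.5, 5.05 and 4.85 in X453_2. In fragments these were 6, 6 and 10 in X453_NC, 93, 77 and 74 in X453_1, and 111, 87 and 79 in X453_2. The ratio of the group means was 11.7 for X453_1 and 13.7 for X453_2, while on the log2(FPKM + 1) scale, where changes of low genes come out too small, the changes were 2.03 ± 0.11 (adjusted P = 3e-07) and 2.20 ± 0.11 (adjusted P = 9.3e-08). The knockdown groups overlapped each other and X453_NC overlapped neither. The H1 box and the CCAAT box printed above stood 117 and 54 bases before the start of this gene.

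The other linker histone genes of the clusters fell below the filter. HIST1H1D lay at 0.38, 0.46 and 0.38 FPKM in X453_NC, at 0.63, 0.79 and 0.76 in X453_1 and at 1.32, 1.19 and 1.51 in X453_2, again without overlap between groups. HIST1H1B lay at 0.05, 0.06 and 0.05 FPKM in X453_NC, which is 1 fragment per library, at 0.62, 0.42 and 0.58 in X453_1 (7 to 11 fragments) and at 0.29, 0.29 and 0.43 in X453_2 (5 to 7 fragments). The testis form HIST1H1T had 0 to 3 fragments in each library.

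The H2A genes moved in opposite directions. HIST2H2AA3 (chromosome 1, 149813785 to 149814318, minus strand) and HIST2H2AA4 (149822628 to 149823161, plus strand) are near-identical copies and had equal values in all 9 libraries, so reads of the 2 genes could not be told apart. Each was measured at 20.16, 15.46 and 18.79 FPKM in X453_NC, at 15.46, 16.01 and 15.42 in X453_1 and at 36.39, 38.65 and 35.90 in X453_2. The level stood apart in X453_2, with a log2 change of 0.996 ± 0.078 (adjusted P = 2.1e-06), whereas X453_1 overlapped X453_NC at -0.19 ± 0.078 and was not called. HIST1H2AE (chromosome 6, 26217148 to 26217711, plus strand) rose in both groups. Its levels were 0.62, 0.75 and 1.10 FPKM in X453_NC, 1.34, 1.94 and 1.70 in X453_1 and 4.15, 4.98 and 4.81 in X453_2, which put the 3 groups in separate ranges. The log2 changes were 0.55 ± 0.11 (adjusted P = 0.0019) and 1.64 ± 0.11 (adjusted P = 9.8e-07). HIST2H2AC was called higher in X453_2, by 0.73 ± 0.15 (adjusted P = 0.0016), with 3 to 10 fragments per library in X453_NC and 11 to 16 in X453_2. In X453_1 it stood at 0.20 ± 0.15 and was called only without X453_NC replicate 1 (0.40) or after GC correction (0.53). It shares 17.2% of its 100-base windows with the copies HIST2H2AA3 and HIST2H2AA4.

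HIST3H2A and HIST1H2AC fell. HIST3H2A (chromosome 1, 228645065 to 228645560, minus strand) was measured at 22.43, 19.78 and 20.77 FPKM in X453_NC, at 8.90, 7.41 and 9.23 in X453_1 and at 10.90, 14.80 and 11.10 in X453_2. Every knockdown library lay below every X453_NC library, and the log2 changes were -1.21 ± 0.11 (adjusted P = 8.4e-06) and -0.74 ± 0.11 (adjusted P = 0.00019). HIST1H2AC (chromosome 6, 26124373 to 26139328, plus strand), with 8 transcripts in the table, was measured at 14.22, 14.11 and 12.72 FPKM in X453_NC, at 9.78, 8.98 and 8.98 in X453_1 and at 10.54, 10.11 and 9.64 in X453_2. Its log2 changes were -0.52 ± 0.054 (adjusted P = 2.1e-05) and -0.40 ± 0.054 (adjusted P = 8.8e-05). The X453_2 call fell under the 1.3-fold limit without X453_2 replicate 3 (-0.37), without X453_NC replicate 1 (-0.38) and after median-ratio scaling (-0.31), GC correction (-0.35) or length correction (-0.34), still with lower values. HIST1H2AG was not called, at -0.18 ± 0.17 and 0.024 ± 0.17.

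The 9 H2A genes below the filter held 0 to 20 fragments per library. Among them HIST1H2AM lay at 0.19, 0.30 and 0.56 FPKM in X453_NC and at 1.24, 2.04 and 1.3 in X453_2, but 84.0% of its 100-base windows also occur in another gene's transcript, so its count is uncertain. The same holds for HIST1H2AD (97.6%), HIST1H2AJ (80.9%) and HIST1H2AI (57.7%).

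**Figure D4:**
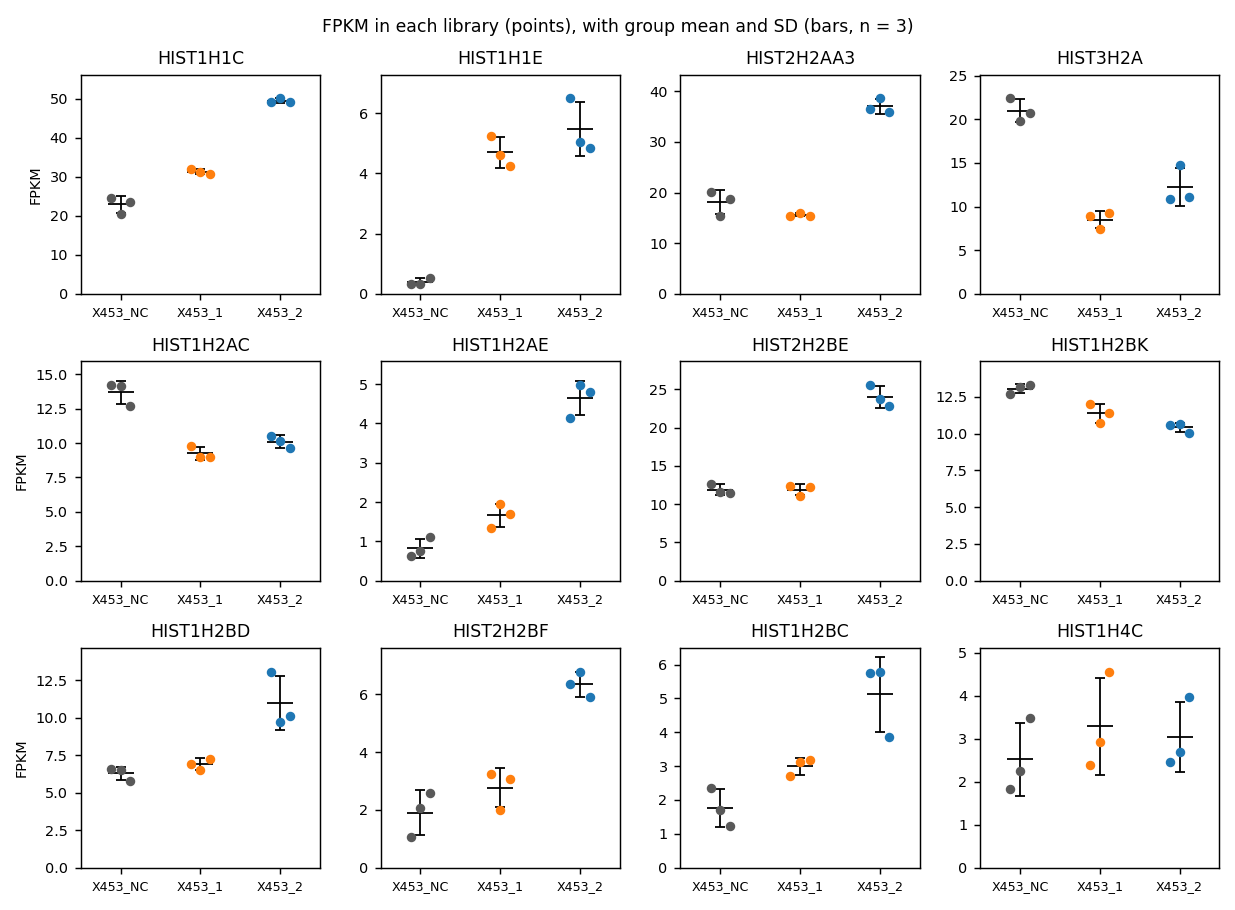
FPKM of 12 tested members in each library (points; axes start at 0 and differ between panels), with the mean and SD of the 3 libraries per group (bars). HIST1H1E and HIST1H2AE are high in both knockdown groups, HIST2H2AA3, HIST2H2BE and HIST1H2BD stand apart in X453_2 alone, HIST3H2A and HIST1H2AC are lower in both, and HIST1H4C overlaps between all groups.

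Among the H2B genes, the highest, HIST2H2BE, was called in X453_2 and not in X453_1, and the next highest, HIST1H2BK, was called in neither. HIST2H2BE (chromosome 1, 149856010 to 149858232, minus strand) had 12.67, 11.58 and 11.47 FPKM in X453_NC, 12.42, 11.04 and 12.22 in X453_1 and 25.58, 23.71 and 22.77 in X453_2. The first 2 groups overlapped, with a log2 difference of -0.0019 ± 0.059 and a 95% interval from -0.13 to 0.13, and X453_2 rose by 0.95 ± 0.059 (adjusted P = 4.6e-07). HIST1H2BD (chromosome 6, 26158349 to 26171577, plus strand) had 6.58, 6.53 and 5.79 FPKM in X453_NC, 6.94, 6.5 and 7.28 in X453_1 and 13.07, 9.71 and 10.15 in X453_2. It was called in X453_2, by 0.71 ± 0.095 (adjusted P = 9e-05), and not in X453_1, at 0.12 ± 0.095. HIST2H2BF (chromosome 1, 149754245 to 149783928, minus strand), whose span overlaps FCGR1A on the other strand, lay at 1.06, 2.06 and 2.58 FPKM in X453_NC, at 3.25, 1.98 and 3.08 in X453_1 and at 6.35, 6.78 and 5.91 in X453_2. It rose in X453_2 by 1.38 ± 0.19 (adjusted P = 0.00011). X453_1 overlapped X453_NC at 0.40 ± 0.19 (adjusted P = 0.093), and it was called there without X453_1 replicate 2 (0.56), without X453_NC replicate 3 (0.57) and after length correction (0.46).

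HIST1H2BC (chromosome 6, 26111779 to 26124196, minus strand) rose in both groups. It was measured at 2.35, 1.69 and 1.24 FPKM in X453_NC, at 2.70, 3.12 and 3.17 in X453_1 and at 5.74, 5.79 and 3.85 in X453_2, with no overlap between the groups. The log2 changes were 0.55 ± 0.16 (adjusted P = 0.012) and 1.15 ± 0.16 (adjusted P = 1e-04). HIST1H2BG was called in both, by 0.42 ± 0.17 (adjusted P = 0.054) and 1.07 ± 0.17 (adjusted P = 0.00029). The X453_1 call of HIST1H2BG was lost without X453_1 replicate 3 (0.18), without X453_NC replicate 1 (0.36) and without X453_NC replicate 3 (0.41). That call was also lost after GC correction (0.37) and in a fit of the 2 groups compared (0.42, with a larger P). HIST1H2BH, with 3 to 20 fragments per library, was called in X453_1, by 0.56 ± 0.25 (adjusted P = 0.068), and not in X453_2, at 0.48 ± 0.25 (adjusted P = 0.1). The knockdown groups differed by only -0.079 ± 0.25 and were not called apart. The X453_1 call was lost on leaving out X453_1 replicate 1 (0.48) or 3 (0.39), X453_NC replicate 2 (0.61) or 3 (0.33), or X453_2 replicate 1 or 2 (0.56, with a larger P). That call was also lost, each time with a larger P, with 0.1 FPKM added (1.01), without the filter (0.56) and in a fit of the 2 groups compared (0.56). In X453_2 HIST1H2BH was called without X453_1 replicate 2 (0.48), without X453_NC replicate 1 (0.66), in a fit of the 2 groups compared (0.48) and after GC correction (0.53).

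HIST1H2BK and HIST1H2BJ stood lower. HIST1H2BK (chromosome 6, 27106072 to 27114637, minus strand), whose span holds HIST1H4I on the other strand and which shares 28.4% of its 100-base windows with H2BFS, had 12.68, 13.19 and 13.31 FPKM in X453_NC, 12.02, 10.74 and 11.39 in X453_1 and 10.57, 10.65 and 10.07 in X453_2. The 3 ranges did not overlap, but the log2 differences of -0.18 ± 0.045 (adjusted P = 0.0052) and -0.30 ± 0.045 (adjusted P = 0.00021) were under the 1.3-fold limit, and the first was 0.060 after GC correction. HIST1H2BJ (chromosome 6, 27089748 to 27100575, minus strand) had 2.92, 3.07 and 3.34 FPKM in X453_NC, 1.47, 2.26 and 2.62 in X453_1 and 2.76, 3.03 and 2.76 in X453_2. It fell in X453_1 by 0.42 on the log2 scale (adjusted P = 0.012) and was not called in X453_2, at -0.094 ± 0.12. The X453_1 call fell under the limit without X453_1 replicate 1 (-0.26) or X453_NC replicate 3 (-0.38). The 8 H2B genes below the filter had 0 to 13 fragments per library, and HIST1H2BF, at 0.33, 0.23 and 0.55 FPKM in X453_NC and 1.56, 1.43 and 1.26 in X453_2, was the highest of them in X453_2.

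No H3 gene had a mean of 1 FPKM, so none entered the main fit. HIST1H3H lay highest, at 0.58, 0.52 and 0.97 FPKM in X453_NC, 0.93, 0.66 and 0.53 in X453_1 and 2.57, 0.74 and 1.46 in X453_2, all overlapping. HIST1H3D lay at 0.62, 0.33 and 0.63 FPKM in X453_NC, 0.72, 0.79 and 0.62 in X453_1 and 1.06, 1.31 and 1.31 in X453_2. All of its 100-base windows also occur in another transcript, and HIST1H2AD lies within its span on the same strand. HIST1H3G lay at 0.20, 0.52 and 0.50 FPKM in X453_NC and at 1.19, 1.40 and 0.80 in X453_2. In the fit without the filter HIST1H3D (0.55, adjusted P = 0.00089) and HIST1H3H (0.56, adjusted P = 0.08) were called higher in X453_2, and HIST1H3F higher and HIST2H3D lower in X453_1. The remaining H3 genes, HIST1H3A, HIST1H3B, HIST1H3C, HIST1H3E, HIST1H3I, HIST1H3J and HIST3H3, had 0 to 9 fragments per library. Of these, HIST1H3E, with 1 to 9 fragments, was called lower in X453_2 than in X453_1 in that fit (-0.39, adjusted P = 0.099). Called higher there were HIST1H3D (0.38, adjusted P = 0.014), HIST1H3H (0.55, adjusted P = 0.13) and HIST2H3D (0.39, adjusted P = 0.051). Over 19930 genes 1.64% were called higher and 3.77% lower in X453_2 than in X453_1. The call of HIST1H3F in X453_1 (0.40, adjusted P = 0.00059) rested on 0 to 4 fragments per library.

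Among all 39 members below 1 FPKM, 11 lay higher in every X453_1 library than in every X453_NC library and 1 lay lower. For X453_2 these counts were 11 and 0. Of the 4080 genes with means in the same range, 20.2% lay wholly higher and 17.9% wholly lower in X453_1, and 15.7% and 26.2% in X453_2. HIST1H1B, HIST1H1D, HIST1H2AI, HIST1H2BI and HIST1H3F lay wholly higher in both, and HIST2H3D was the 1 that lay lower in X453_1. Some of these gaps were ties in estimated fragments, parted only by library depth. In HIST1H2BI in both groups, HIST1H3F in X453_2 and HIST3H3 in X453_1, the lowest knockdown library and the highest X453_NC library held 1 fragment each. In X453_2 against X453_1, 5 of the 39 lay wholly higher and 3 wholly lower, where 4.41% and 19.1% of the 4080 genes did.

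Of the 6 tested H4 genes, 1 was called, in X453_2, and several share their reads. HIST1H4C (chromosome 6, 26104176 to 26104565, plus strand) had 1.84, 2.24 and 3.48 FPKM in X453_NC, 2.38, 2.93 and 4.56 in X453_1 and 2.45, 2.70 and 3.98 in X453_2. All groups overlapped, and the log2 differences of 0.28 ± 0.22 and 0.21 ± 0.22 were not called. HIST1H4E rose in X453_2 by 0.74 ± 0.13 (adjusted P = 0.00058), from 3 to 6 fragments per library in X453_NC to 9 to 13, and was not called in X453_1, at 0.37 ± 0.13, just under the 1.3-fold limit of 0.38. It was called there with 0.1 FPKM added (0.78), after length correction (0.43), without X453_1 replicate 1 (0.45) or 3 (0.39) and without X453_NC replicate 2 (0.49). HIST4H4 (chromosome 12, 14917350 to 14924065, minus strand) had 1.25, 1.69 and 1.22 FPKM in X453_NC, 1.68, 1.72 and 1.70 in X453_1 and 0.90, 1.28 and 1.33 in X453_2, without a call. With the settings as first described, none of the 6 was called by limma in X453_1, and 1, HIST1H4E, had an unadjusted P of at most 0.05. Of all 12884 genes tested, 4358 were higher and 4366 lower at that P. In the fit without the filter, HIST1H4B (0.57, adjusted P = 0.0056) and HIST1H4I (0.55, adjusted P = 0.019) were called higher in X453_1, where 8.06% of 19930 genes were. HIST1H4B held 0 to 1 fragments per library in X453_NC and 3 to 4 in X453_1, and HIST1H4I 3 to 5 and 7 to 10. The copies HIST2H4A and HIST2H4B had equal values in all libraries, from 0.00 to 1.96 FPKM, and were not called at -0.37 ± 0.37 and 0.018 ± 0.37.

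HIST1H4K (chromosome 6, 27798952 to 27799305, minus strand) shares all of its 100-base windows with HIST1H4J, another H4 gene, and in each of the 9 libraries 1 of the 2 was listed at 0. HIST1H4K had 1.67, 1.95 and 0.00 FPKM in X453_NC, 3.76, 3.50 and 3.80 in X453_1 and 0.00, 5.04 and 5.80 in X453_2, and HIST1H4J had 2.24 and 3.68 in the libraries where HIST1H4K was at 0. Taken alone, HIST1H4K was not called, at 1.24 ± 0.66 and 0.79 ± 0.66. In X453_1 it was called in a fit of the 2 groups compared (1.24), without X453_2 replicate 1 (1.24) and after GC correction (1.62). As a sum, an alternative chosen after seeing the data, the pair stood at 1.95 ± 0.285 FPKM in X453_NC, 3.69 ± 0.163 in X453_1 and 4.84 ± 1.07 in X453_2. Every knockdown library then lay above every X453_NC library, and the log2 changes of 0.67 ± 0.12 (adjusted P = 0.00086) and 0.97 ± 0.12 (adjusted P = 5.8e-05) were both called. Without X453_2 replicate 1, where its reads were listed under HIST1H4J, HIST1H4K alone was at 1.69 in X453_2 and was called. That fit, like those that called it in X453_1, kept X453_NC replicate 3, where HIST1H4K was also at 0.00 and HIST1H4J at 2.24. This 0.00 lowered the X453_NC mean of HIST1H4K.

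**Figure D5:**
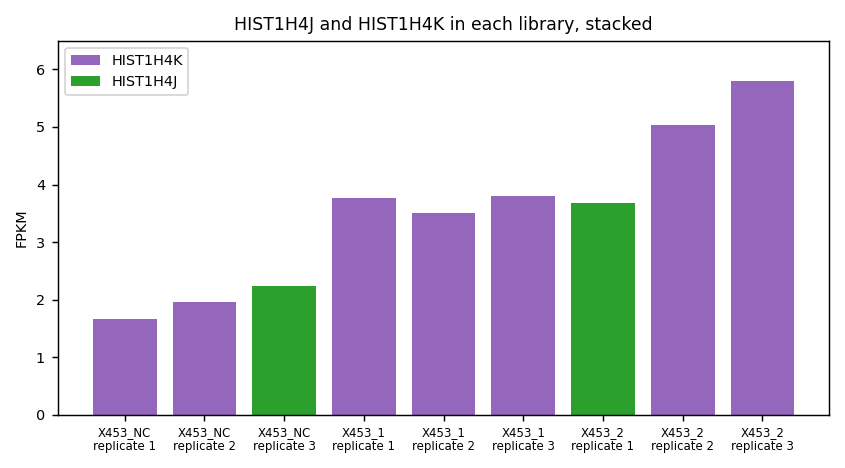
FPKM of HIST1H4K (purple) and HIST1H4J (green) stacked in each of the 9 libraries. Each bar is a single colour because 1 of the 2 genes is at 0 in every library, and the bars of X453_NC (1.67 to 2.24) lie below all knockdown bars (3.50 to 5.80).

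Set directly against each other, the knockdown groups differed at many histone genes. In X453_2 minus X453_1, 11 of the 23 members were called higher and 0 lower by limma, where 2.19% of all genes tested were called higher and 5.45% lower. Over all genes this split also turned with the scaling, from 282 higher and 702 lower as deposited to 524 and 321 after median-ratio scaling, and the members went to 13 higher and 0 lower. Without the filter, 16 of the 62 were called higher and 1 lower (1.64% and 3.77% of all genes). At an unadjusted P of at most 0.05 and any fold change, 13 of the 23 were higher and 2 lower, the latter HIST1H2BK and HIST4H4. At that limit 1635 of all 12884 genes tested were higher and 5062 lower. Beside the H2A copies with 1.19 ± 0.078 (adjusted P = 8.1e-06), the widest differences were those of HIST1H2AE with 1.09 ± 0.11 (adjusted P = 0.00011), HIST2H2BF with 0.98 ± 0.19 (adjusted P = 0.0029) and HIST2H2BE with 0.96 ± 0.059 (adjusted P = 6.1e-06). Those of HIST1H2BG, HIST1H1C, HIST1H2BC, HIST1H2BD, HIST2H2AC and HIST3H2A ranged from 0.47 to 0.65, and that of HIST3H2A was 0.34, under the limit, without X453_2 replicate 2. HIST1H1E was not called in this comparison, at 0.18 ± 0.11 with a 95% interval from -0.062 to 0.42. By list, 7 of the 11 tested members with polyadenylated forms were called higher, with a median of 0.59, and 4 of the 12 others, with a median of 0.38. HIST2H2AA3 is on the list and its copy HIST2H2AA4 is among the 12 others, so the same reads counted on both sides. The list was compiled with earlier results of these data known, so these contrasts are not independent tests. Against X453_NC, 6 of the 11 and 6 of the 12 were called higher in X453_2, with medians of 0.71 and 0.74 and with 2 and 0 called lower. In X453_1 the 11 held 3 higher and 3 lower, with a median of -0.0019, and the 12 held 3 higher and 0 lower, with a median of 0.33. Against X453_NC, 11.0% of all genes tested were called higher and 23.1% lower in X453_2, and 11.1% and 15.6% in X453_1.

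Genes that make and remove histone mRNA were examined beside the members. Of 26 genes of histone mRNA transcription and processing, all tested, 7 were called higher and 1 lower in X453_1, and 5 higher and 2 lower in X453_2, with medians of 0.16 and 0.15. Over all genes tested, 11.1% were called higher and 15.6% lower in X453_1, and 11.0% and 23.1% in X453_2, and the counts of this list and of those that follow are to be read against these shares. SLBP stood at 21.2 ± 1.16 FPKM in X453_NC, 32.3 ± 0.28 in X453_1 and 33.3 ± 1.13 in X453_2 and rose in both (0.59, adjusted P = 1.9e-06, and 0.63, adjusted P = 7.7e-07). NPAT stood at 5.16 ± 0.303, 5.37 ± 0.36 and 3.71 ± 0.13 FPKM and fell in X453_2 alone, by 0.39 on the log2 scale (adjusted P = 0.00016). CASP8AP2, a partner in histone gene transcription, was not called in either, at 0.15 and -0.033. CCNE1 and CCNE2, the E-type cyclins that drive S-phase entry and whose kinase acts on NPAT, rose in both (0.63 and 0.90, and 0.54 and 0.49), as did SNRPG, a protein of small nuclear ribonucleoproteins (0.55 and 0.57). CPSF4, a polyadenylation factor, fell in both, with log2 changes of -0.84 and -0.92. Of 16 genes of histone mRNA decay, 2 were called higher in each comparison and 0 lower, and ERI1, the exonuclease that trims the stem-loop, rose in both (0.59 and 0.58).

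Of 40 genes of DNA replication in S phase, 7 were called higher and 2 lower in X453_1, and 11 higher and 4 lower in X453_2, with medians of 0.17 and 0.19. MCM4, a subunit of the replicative helicase, rose by 0.93 and 0.99, RRM2, a subunit of ribonucleotide reductase, by 0.61 and 0.74, CDC6, which loads the helicase, by 0.62 and 0.72, and FEN1, the flap endonuclease, by 0.63 and 0.59. CDT1, the licensing factor, fell in both (-1.11 and -0.71), and so did the polymerase subunit POLD1 (-0.57 and -0.55). The summed level of the 40 genes ran from 1017 to 1021 FPKM in X453_NC, from 1152 to 1180 in X453_1 and from 1194 to 1212 in X453_2. The part of these genes, or of the share of cells in S phase, in the histone values was not tested.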

How the data were processed

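RNA from 9 MDA-MB-453 libraries was sequenced by the authors on the BGISEQ-500 platform. The deposited table gave FPKM per gene, rounded to 2 decimals and normalised by the authors for transcript length and depth. The submitters' processing notes name Bowtie2 (version 2) and GRCh37.p13, and the counting tool, strand setting and RNA selection are not given in the sources used here. Of 19934 lines, 4 had no values and were left out. The authors' own comparison columns (log2 ratios, P and Q values) were not used. No raw counts were used, so a count test was not run.

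Genes whose mean reached 1 FPKM were tested, as log2(FPKM + 1), with limma 3.58.1 (R 4.3.3, trended variance, 9 libraries in 1 fit, no covariates, two-sided) and Benjamini-Hochberg adjustment. A call needed a 1.3-fold change or more with P, before adjustment, no larger than 0.05. The fit and the depth estimate were tested on simulated data. Depth came from the FPKM steps of single-transcript genes of 350 to 900 bases, with 80 bases taken off each length, and fragments are FPKM turned back with it; they carry counting error. Every tested member is named. Values in every library are given for the 3 highest tested members of each class, the 5 with the largest rise and up to 5 with the largest fall among the called. A few members below the filter and HIST1H4J were added after their values were seen. Sets of other genes, the list of polyadenylated members and the histone members themselves were chosen with earlier results of these data known. The histone variant, chaperone and marker lists were treated in the same way. Windows of 100 bases were compared between GENCODE 29 transcripts to find shared reads. Alternatives were another pseudocount (0.1), filter, scaling, fit, fold limit (1.5), GC or length correction, each library left out, and summed copies. 1 marker of the line is not reported here.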

Additional observations from a re-analysis of the deposited data

Results flagged for a closer look

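The change from X453_NC differed between the knockdown groups, by limma's test of X453_2 minus X453_1 (fold change of at least 1.3 and adjusted P of at most 0.05), at 11 members, all with the higher value in X453_2. The H2A copies HIST2H2AA3 and HIST2H2AA4 differed by 1.19 on the log2(FPKM + 1) scale, on the same reads. HIST1H2AE differed by 1.09, HIST2H2BF by 0.98 and HIST2H2BE by 0.96. The differences were 0.65 for HIST1H2BG, 0.64 for HIST1H1C, 0.60 for HIST1H2BC, 0.59 for HIST1H2BD and 0.53 for HIST2H2AC. HIST3H2A differed by 0.47, from a lower level in X453_1 than in X453_2 with both below X453_NC, and by 0.34 without X453_2 replicate 2, under the 1.3-fold limit. Groups of 3 libraries were too small for a check of single outlying libraries.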

How the results depend on the processing

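Values are log2(FPKM + 1) changes or counts of the members called. In X453_1, 17 were called without the filter (13 higher), where 1606 of 19930 genes were higher and 2244 lower. At a mean of at least 5 FPKM, 3 of 8 tested members were called (1 higher), where 926 of 8610 genes were higher and 1285 lower. At a 1.5-fold limit, 2 of 23 were called (1 higher and 1 lower), where 543 of 12884 genes were higher and 1030 lower. In X453_2, 7 were called at 5 FPKM (5 higher), where 947 of 8610 genes were higher and 1767 lower. The lower calls went from 2 to 1 after median-ratio scaling, at the 1.5-fold limit and after GC or length correction. Over all genes 2246, 1591, 1625 and 2177 were lower at these settings, out of 12884, or 11190 for GC correction. In X453_2 minus X453_1, 1 was lower with 0.1 FPKM added, where 1303 of 12884 genes were. Without the filter 17 were called (1 lower), where 326 of 19930 genes were higher and 752 lower. At 5 FPKM 6 were called (6 higher), where 200 of 8610 genes were higher and 347 lower. Leaving out 1 library gave 7 to 10 calls in X453_1 (5 to 7 higher, 2 to 3 lower), 13 to 15 in X453_2 (12 to 13 higher, 1 to 2 lower, 1 without X453_2 replicate 3 or X453_NC replicate 1), and 11 to 12 in their difference. Of all 12884 genes, 1417 to 1511 were then higher and 1922 to 2081 lower in X453_1, and 1398 to 1430 and 2893 to 3046 in X453_2. In their difference 247 to 377 were higher and 667 to 758 lower. Summing identical copies, added after seeing the data, gave 10, 14 and 10 calls. Of 12882 genes, 1433, 1411 and 281 were then higher and 2004, 2974 and 702 lower.

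The changes that turned sign were all uncalled. After GC correction these were HIST2H2AA3 (0.0773), HIST2H2AA4 (0.0751) and HIST1H2BK (0.0603) in X453_1, and HIST1H2BH (0.0421) and HIST1H4C (0.0146, and 0.0087 after median-ratio scaling) in X453_2 minus X453_1. After length correction they were HIST2H2BE in X453_1 (0.0598), and HIST1H2AG (-0.0379), HIST1H2BJ (0.0158) and HIST2H4A and HIST2H4B (-0.0705) in X453_2. With 1 library left out, HIST2H2BE ran from -0.0316 to 0.0467 and HIST2H4A and HIST2H4B from -0.7123 to 0.0501 in X453_1. In X453_2, HIST1H2AG ran from -0.0748 to 0.1694 and HIST2H4A and HIST2H4B from -0.3203 to 0.1895. In X453_2 minus X453_1, HIST1H2BH ran from -0.3358 to 0.0916, HIST1H4C from -0.2318 to 0.131, HIST1H4K from -0.9307 to 0.4521, and HIST2H4A and HIST2H4B from -0.0322 to 0.6459. The cause was not tested.

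The label suffix taken as a replicate block left the counts at 9, 14 and 11. Of all 12884 genes, 1444, 1417 and 285 were then higher and 2005, 2983 and 703 lower. Libraries with the same suffix deviated together by correlations of -0.239 to 0.104, with no clear sign of pairing. Libraries with different suffixes were not compared, so these values cannot decide whether the suffixes mark pairs. GC content was at hand for 86.9% of the genes tested. GC correction split the calls over all genes into 1249 higher and 1254 lower in X453_1, 1713 and 1625 in X453_2, and 327 and 244 in their difference, and length correction into 1517 and 1897, 2002 and 2177, and 401 and 317. Median-ratio scaling moved the median of all genes in X453_2 from -0.0954 to -0.00414.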

Other observations

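Histone genes outside the clusters summed to a higher level than the clustered genes. The 12 histone variant genes on the list summed to 1956 to 2045 FPKM in X453_NC, 1792 to 1875 in X453_1 and 1973 to 2104 in X453_2. Whether RNA was selected by its poly(A) tail is not stated, and its part in this difference from the clustered genes was not tested. All 12 were tested, 3 were called lower in X453_1 and 4 in X453_2, and none was called higher by limma, where 15.6% and 23.1% of all genes tested were called lower and 11.1% and 11.0% higher. H1FX, a linker histone variant, stood at 219 ± 22.6 FPKM (SD, n = 3) in X453_NC, 132 ± 5.16 in X453_1 and 164 ± 15.4 in X453_2 (log2 changes of -0.72, adjusted P = 3.6e-05, and -0.41, adjusted P = 0.0013). H2AFX, the variant phosphorylated at DNA breaks, stood at 79.5 ± 7.11, 55.1 ± 2 and 56.9 ± 5.98 FPKM (-0.52 and -0.48), and H2AFY2, a macroH2A gene, at 31.2 ± 0.266, 20.3 ± 0.93 and 23.3 ± 0.418 FPKM (-0.60 and -0.41).

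Of 24 histone chaperone and supply genes, 2 were called higher in each comparison, and 2 were called lower in X453_1 and 3 in X453_2, shares at or below those over all genes. HAT1, the acetyltransferase of newly made H4, rose by 0.58 and 0.49, and SUPT6H, a transcription elongation chaperone, by 0.38 and 0.41. TONSL, which binds new histones at replication forks, fell in both (-0.49 and -0.62).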
